A study of Sus scrofa with 6 samples.

Results

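miR-34a and miR-34c are paralogous microRNAs (miRNAs) of the miR-34 family, which act by pairing with messenger RNAs and silencing them. They were followed here in small RNA libraries of pig oocytes. Both were chosen by name, with earlier results of these data known, as 2 of the 326 mature pig miRNAs listed for each library. Of the 326, 242 had at least 1 read. The study set oocytes of large follicles (LO, follicles of 3 to 6 mm, aspirated with a 20-gauge needle and a 10 mL syringe) against oocytes of small follicles (SO, follicles under 2 mm, 23-gauge needle and 5 mL syringe), with 3 libraries in each group. All oocytes came from ovaries of prepubertal gilts collected at an abattoir and were denuded, that is, freed of their cumulus cells, before RNA was extracted. Follicle size, needle and syringe differed together and cannot be told apart. The series calls the libraries biological replicates. The number of gilts or oocytes per library is not stated, so the p-values below refer to the spread between these libraries only. In limma, the method used for fold changes, that spread is taken largely from miRNAs of similar level.

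In mammals the miR-34 family is best known from the p53 pathway. p53 activates transcription of the MIR34A gene and of the separate locus that encodes miR-34b and miR-34c, and the mature miRNAs repress messenger RNAs of cell cycle and survival genes. Tissue patterns differ: miR-34a is broadly expressed, whereas miR-34b and miR-34c are enriched in ciliated epithelia and in male germ cells. p53 itself was not measured in these libraries. No miR-34b or miR-449, relatives with the same kind of seed, was among the listed miRNAs, so none could be analysed here.

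The mature sequences are shown because the shared seed makes both members candidates for the same target sites, while the rest lets their reads be told apart. They are the deposited ones, in DNA letters from 5′ to 3′, with the seed (bases 2 to 8) in capitals.
ssc-miR-34a: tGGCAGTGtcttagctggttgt
ssc-miR-34c: aGGCAGTGtagttagctgattgc
The sequences are 22 and 23 nucleotides long. They share the seed GGCAGTG, whose perfect match in a target reads CACTGCC, and they are identical from base 2 to base 9. Counted from the 5′ end, base 1 differs (T1A, from miR-34a to miR-34c), and over the full length the sequences lie 5 single-base edits apart. No other listed miRNA carried this seed or its bases 2 to 7. The nearest other listed sequence was 8 edits from miR-34a (miR-122) and 9 edits from miR-34c (miR-885-3p). In RefSeq's pig annotation (Sscrofa11.1, a later build than the Sscrofa10.2 named for these files, so no coordinates are given) the gene MIR34C-1 lies within the spans of BTG4, an oocyte gene that acts in the clearance of maternal messenger RNA, and of C9H11orf88. Under the name used in the files, no entry for miR-34a was matched in that table.

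The libraries stood behind these values with unequal depth. Values are reads per 1000000 (RPM) of a total that the authors chose for each library, and recovered totals ran from 461505 to 1424130 reads in LO and from 1915218 to 2187987 in SO. One read was therefore worth 0.702 to 2.17 RPM in LO and 0.457 to 0.522 RPM in SO. The listed miRNAs took 3.03%, 1.68% and 2.99% of the total in the LO libraries and 2.88%, 2.34% and 2.33% in the SO libraries, each in replicate order. LO replicate 2 stood apart with the fewest reads (7755 on listed miRNAs, against 17464 to 55230 in the other libraries) and the lowest miRNA share, so the fold changes, the ratio, the spread and the correlations below are also given without it. No replicate pair of a group agreed within sampling noise (chi-square per degree of freedom 2.71 to 16.8). In LO this was 11.6 for replicates 1 and 2, 16.8 for 1 and 3, and 2.71 for 2 and 3. By this measure, which also grows with read number, LO replicate 1 was the LO library furthest in makeup. The spread and the correlations below are not given without LO replicate 1.

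Both members were found in every library, at a moderate level. miR-34c averaged 29.5 ± 5.76 RPM over the 6 libraries (SD) and ranked 59 by mean level among all listed miRNAs. miR-34a averaged 18.9 ± 17.2 RPM and ranked 71. For scale, the most abundant miRNA, miR-205, averaged 9228 ± 1874 RPM, which was 313 times the mean of miR-34c and 487 times that of miR-34a. Levels of different miRNAs are in RPM without a length term, since a read spans the whole miRNA, and the efficiency with which each sequence enters a library was not measured.

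miR-34a, the broadly expressed p53 target, was the variable member. In replicate order it lay at 48.6, 2.17 and 29.5 RPM in LO and at 15.1, 10.9 and 7.31 RPM in SO. LO replicates 1 and 3 were the highest of the 6 libraries and LO replicate 2 the lowest, so the groups overlapped. These values rest on 28, 1 and 42 reads in LO and on 29, 21 and 16 reads in SO. The single read of LO replicate 2 has an exact 95% Poisson interval of 0.0549 to 12.1 RPM, which covers counting error only. That interval lies below those of LO replicate 1 (32.3 to 70.3 RPM) and LO replicate 3 (21.3 to 39.9 RPM) and overlaps all 3 SO intervals, the highest of which is 10.1 to 21.7 RPM in SO replicate 1. At the RPM of LO replicate 3, LO replicate 2 would have held 13.6 reads of miR-34a, and at that of SO replicate 3, the lowest SO library, 3.37 reads. In RPM, LO replicate 2 thus differed from the other LO libraries by more than counting error. These intervals and expected reads were not computed on the other scales. There the low miRNA share of LO replicate 2 would narrow the gap and could close that to LO replicate 3.

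miR-34c, the member of the germ cell and ciliated cell locus, was the even one on the deposited scale. It lay at 27.8, 30.3 and 26.0 RPM in LO and at 40.7, 26.6 and 25.6 RPM in SO, on 16, 14 and 37 and on 78, 51 and 56 reads. SO replicate 1 was the highest library, and the other 5 lay within 25.6 to 30.3 RPM, so the groups overlapped. The exact Poisson intervals of all 6 libraries shared a common stretch, from the highest lower bound of 32.2 RPM (SO replicate 1) to the lowest upper bound of 33.2 RPM (SO replicate 3). The highest library was 1.59 times the lowest, against 22.4 times for miR-34a. Without LO replicate 2 these ranges were 1.59 and 6.65 times.

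**Figure D1:**
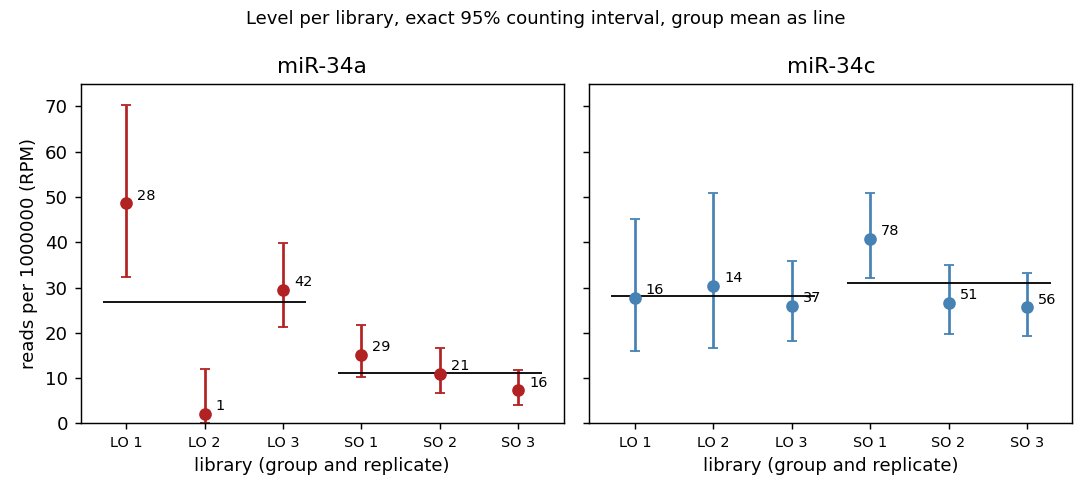
Level of miR-34a (left) and miR-34c (right) in each library, in RPM, with exact 95% Poisson intervals, the number of reads beside each point and the group mean as a line. miR-34a runs from 2.17 to 48.6 RPM within LO, while miR-34c stays between 25.6 and 40.7 RPM in all 6 libraries.

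The comparison of oocytes from large and small follicles asked whether either member depends on follicle size. The group mean of miR-34a was 26.8 ± 23.3 RPM for LO and 11.1 ± 3.92 RPM for SO, and that of miR-34c was 28.0 ± 2.19 and 31.0 ± 8.47 RPM (± SD over 3 libraries). By limma on log2(RPM + 1) over 104 tested miRNAs, the log2 fold change of miR-34a was 0.53 in LO over SO (SE 0.67, 95% interval -0.79 to 1.84, FDR 0.780). That of miR-34c was -0.11 (SE 0.60, 95% interval -1.28 to 1.06, FDR 0.948). limma draws each SE from the trend over miRNAs of similar level. The 2 SEs were therefore close, although the CVs (SD over mean) in RPM over 6 libraries were 91.0% for miR-34a and 19.5% for miR-34c. The SEs, intervals and FDRs thus do not measure each member's own spread. The median of all tested miRNAs was 0.29 on the same scale. Neither member passed a false discovery rate (FDR) of 0.05, and both intervals reach past 1 on the log2 scale. limma called 0 of the 104 miRNAs (0%), with 4 at an unadjusted p under 0.05. edgeR and DESeq2 on recovered reads each called 2 (1.92%), neither of them a member. The ranges of LO and SO in RPM lay apart for 4 of the 104 (3.85%), and for neither member. edgeR without SO replicate 2 called 4 (3.85%), again neither member. In bulk RNA such as this, fewer cells of a type and less RNA per cell cannot be told apart.

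The value for miR-34a turned on single LO libraries. Without LO replicate 2 its log2 fold change was 1.73 with an FDR of 0.0233 by limma, and LO replicates 1 and 3 both lay above every SO library. The SE there, 0.55, is again drawn from miRNAs of similar level. In that fit 18 of 104 miRNAs were called (17.3%), all higher in LO, the median of all tested miRNAs was 0.62, and 46 of 104 (44.2%) had both LO libraries above all SO libraries. On reads scaled by TMM (trimmed mean of M-values, which balances the bulk of miRNAs between libraries), edgeR without the same library gave miR-34a 1.14 with an FDR of 0.103, beside a median of -0.03 and 1 call (0.962%). Without LO replicate 1 the limma value of miR-34a was -0.25, with a median of -0.06, and without LO replicate 3 it was 0.10.

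Scaling moved the size of both differences and, with all 6 libraries, not their direction. With TMM, edgeR gave miR-34a a log2 fold change of 0.88 (FDR 0.349) and miR-34c -0.43 (FDR 0.600), beside a median of 0.10 for all tested miRNAs. limma on log2 CPM (reads per 1000000 tested miRNA reads) with TMM gave 0.23 (FDR 0.849) and -0.35 (FDR 0.736), beside a median of 0.05. By edgeR with TMM, 6 of the 104 miRNAs had a larger fold change towards LO than miR-34a, against 32 by limma on RPM. miR-34c stayed on the SO side of 0 in these fits, and its value was 0.10 by limma without SO replicate 1, where the median was 0.41.

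**Figure D2:**
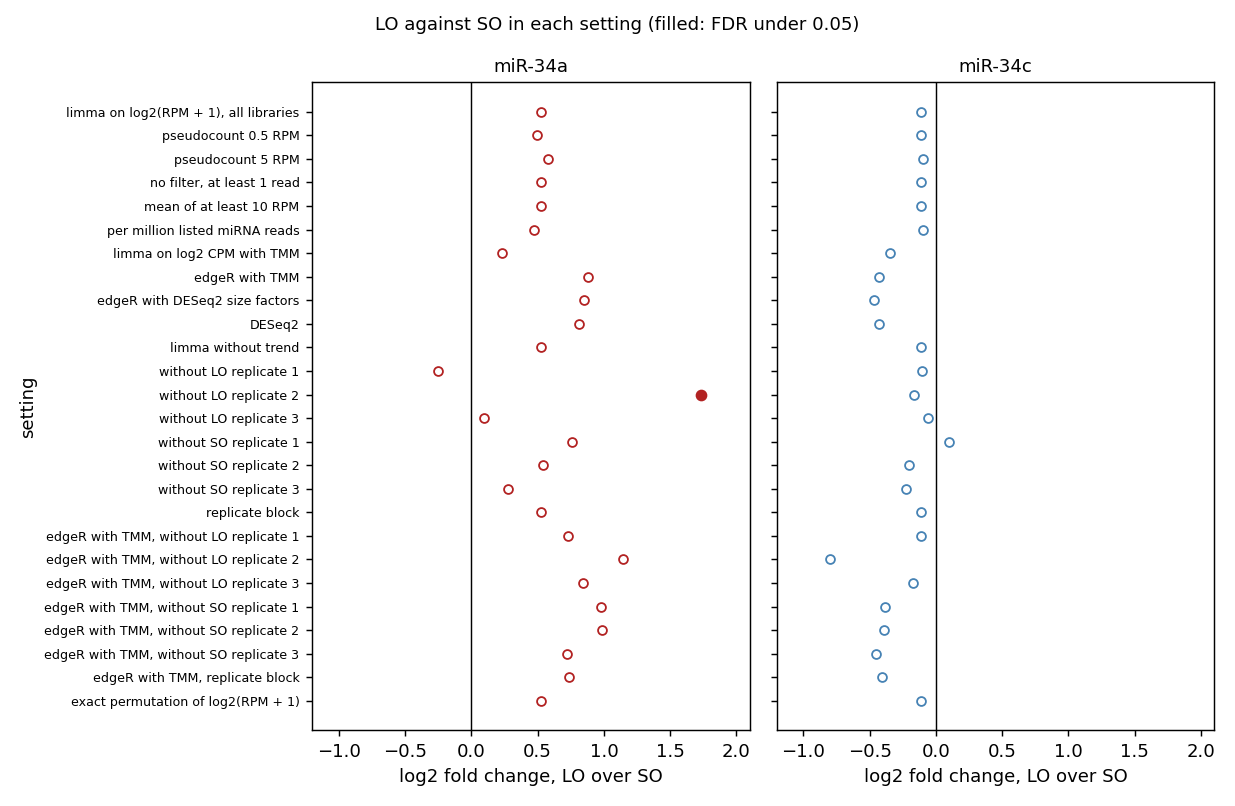
Log2 fold change of LO over SO for miR-34a (left) and miR-34c (right) in each setting, filled where the FDR is under 0.05 (the permutation test has no FDR). miR-34a is filled only without LO replicate 2 (1.73) and is below 0 only without LO replicate 1 (-0.25), and miR-34c is above 0 only without SO replicate 1 (0.10).

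The ratio of the members within a library does not depend on the scaling of that library. miR-34a reads per miR-34c read came to 1.75, 0.0714 and 1.14 in LO and to 0.372, 0.412 and 0.286 in SO, each in replicate order. miR-34a exceeded miR-34c in LO replicates 1 and 3 and in no other library. The exact binomial intervals of the ratio were 0.915 to 3.46 in LO replicate 1 and 0.712 to 1.82 in LO replicate 3, both including equality. All 3 SO intervals lay below equality, with the highest upper bound at 0.697 in SO replicate 2, which is below the lower bound of both LO libraries. LO replicate 2, on 1 and 14 reads, had an upper bound of 0.469 and so lay with the SO libraries or below them. The ratio spanned 24.5-fold within LO and 1.44-fold within SO, and LO replicates 1 and 3 alone spanned 1.54-fold, so the wide span of LO was that of the library with 1 miR-34a read.

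As a share of the reads of the pair, miR-34a held 63.6%, 6.67% and 53.2% in LO and 27.1%, 29.2% and 22.2% in SO. The log2 ratio averaged -0.94 ± 2.50 over the 3 LO libraries and -1.50 ± 0.27 over the 3 SO libraries (± SD). The difference of 0.57 was not past the spread between libraries (exact two-sided permutation p = 0.8, adjusted over 2 ratio tests 0.8; the smallest p that 3 against 3 can give is 0.1). This is also the test of whether the LO to SO change differs between the members. Without LO replicate 2 the difference was 2.00, with an exact permutation p of 0.1, the smallest possible there too. Without LO replicate 1 it was -0.31 (exact permutation p = 0.8), and without LO replicate 3 it was 0.00496 (exact permutation p = 1). With reads pooled within groups, which gives the shallow LO replicate 2 little weight, the ratio was 1.06 in LO (71 against 67 reads) and 0.357 in SO (66 against 185 reads).

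Over all 6 libraries the mean log2 ratio was -1.22 ± 1.62, with miR-34c higher in 4 of 6 (exact two-sided sign-flip permutation p = 0.125, adjusted over 2 tests 0.25; the smallest p possible is 0.0312). The members' order by level was therefore miR-34c above miR-34a in SO, beyond counting error in each library. In LO, levels of 28.0 and 26.8 RPM did not differ beyond the spread.

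**Figure D3:**
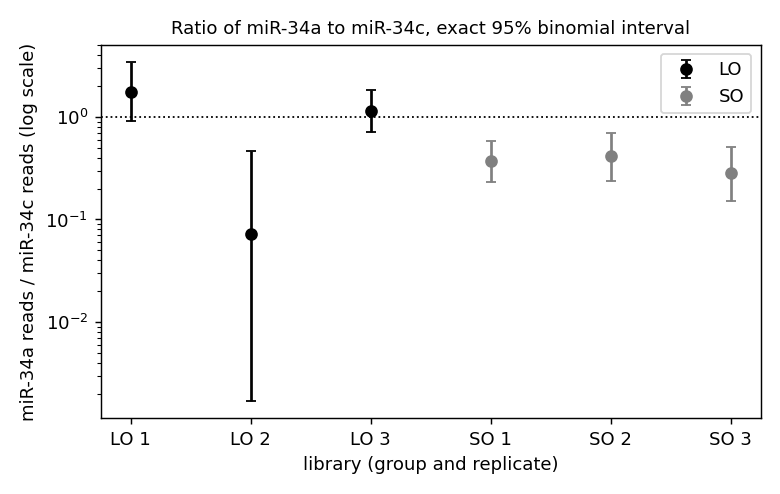
Ratio of miR-34a reads to miR-34c reads in each library on a log axis, with exact 95% binomial intervals. The dotted line marks equal reads. LO 1 and LO 3 lie at 1.75 and 1.14, the SO libraries at 0.286 to 0.412, and LO 2 at 0.0714.

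Because the members share a seed, their summed level describes the pool of reads with that seed among the listed miRNAs. Unlisted relatives are not in it. The sum was 76.4, 32.5 and 55.5 RPM in the LO libraries and 55.9, 37.5 and 32.9 RPM in the SO libraries, that is, 54.8 ± 22.0 and 42.1 ± 12.1 RPM. LO replicate 1 was the highest and LO replicate 2 the lowest library, and the groups overlapped. As a share of listed miRNA reads the pool was 0.252%, 0.193% and 0.186% in LO and 0.194%, 0.160% and 0.141% in SO. In LO replicate 2, 14 of the 15 reads of the pool were miR-34c.

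With all 6 libraries, the evenness of miR-34c depended on the scale. The members were chosen with earlier results of these data known. Ranks by CV, here and for miR-34a, therefore only describe them. In RPM its coefficient of variation (CV, SD over mean) over the 6 libraries was 19.5%, and 3 of the other tested miRNAs had a smaller CV, beside a median of 45.5%. Within LO its CV was 7.80%, the smallest of the 104, although counting error alone amounts to 16.4% to 26.7% of a library's value at these read numbers. The spread within LO was therefore smaller than these read numbers can resolve. As a share of listed miRNA reads, miR-34c lay at 0.0916%, 0.181% and 0.0870% in LO and at 0.141%, 0.113% and 0.110% in SO. On this scale LO replicate 2 was the highest library and LO replicates 1 and 3 the lowest. The CV within LO was then 44.0%, with 69 of the tested miRNAs having a smaller one, and over all libraries 29.1%, with 35 smaller. With TMM the CPM of miR-34c was 678, 1959 and 848 in LO and 1559, 1178 and 1295 in SO, with a CV of 37.4%, slightly above the median of 33.1%. The wide spread within LO as a share of listed reads rested on LO replicate 2, with its 14 reads of miR-34c. Without that library, LO replicates 1 and 3 alone gave miR-34c a CV of 4.75% in RPM, 3.68% as a share of listed reads and 15.8% with TMM. Over the 5 remaining libraries its CV was 21.9%, 19.8% and 31.7% on the same scales, beside medians of 38.3%, 32.3% and 31.7%. The CV with TMM thus stayed above those on the other scales, and over the 5 libraries it lay at the median.

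With all 6 libraries, miR-34a was among the most variable miRNAs on each of these scales. Its CV over the 6 libraries was 91.0% in RPM, 80.4% as a share of listed reads and 62.4% in CPM with TMM. No more than 6 of the 104 tested miRNAs had a larger CV on any of them. Its share of listed reads was 0.160%, 0.0129% and 0.0987% in LO and 0.0525%, 0.0467% and 0.0314% in SO. Within LO the CV in RPM was 87.2%, against 35.2% in SO, and LO replicates 1 and 3 alone gave 34.6%, so the contrast in spread between the groups was that of LO replicate 2. Without that library the CV over 5 libraries was 76.0%, 67.3% and 48.0% on the 3 scales, with 11 to 13 of the tested miRNAs having a larger one. In SO, 31 tested miRNAs had a larger CV than miR-34a and 48 had a larger one than miR-34c (27.3%).

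**Figure D4:**
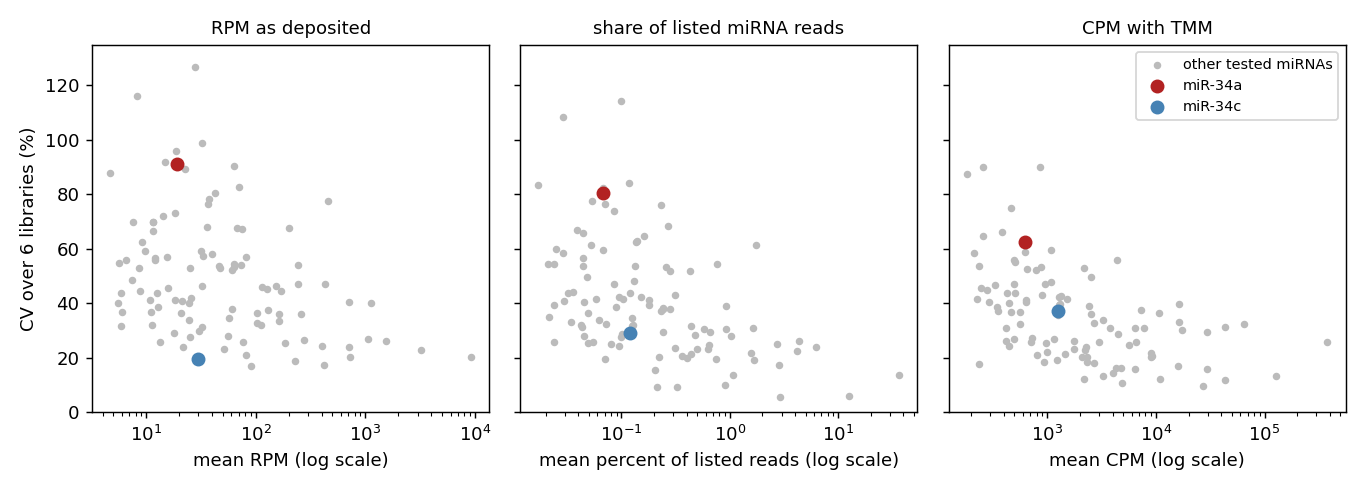
CV over the 6 libraries against mean level (log axis) for the 104 tested miRNAs in RPM, as a share of listed miRNA reads and in CPM with TMM. miR-34a lies near the top in all 3 panels (CV 91.0%, 80.4% and 62.4%), while miR-34c moves from the lower edge in RPM (19.5%) to near the middle with TMM (37.4%).

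The spread of miR-34a had the same sign, library by library, as that of the typical miRNA, and was larger in all 6. Against its own mean over the 6 libraries, miR-34a deviated by 1.82, -2.15 and 1.12 on the log2(RPM + 1) scale in LO replicates 1 to 3, beside medians of 0.75, -0.63 and 0.35 over the tested miRNAs. In LO replicate 3 only 2 of the 104 tested miRNAs deviated further upwards, in LO replicate 1 only 5 did, and in LO replicate 2 only 3 deviated further downwards. In SO the deviations of miR-34a were 0.20, -0.23 and -0.76, beside medians of 0.19, -0.11 and -0.38. miR-34c did not go with the typical miRNA in LO, with deviations of -0.06, 0.06 and -0.16. The order of the 6 libraries by miR-34a was that of their miRNA share of the total, from LO replicate 1 at 3.03% down to LO replicate 2 at 1.68%. The part of that share in the level of miR-34a was not tested.

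**Figure D5:**
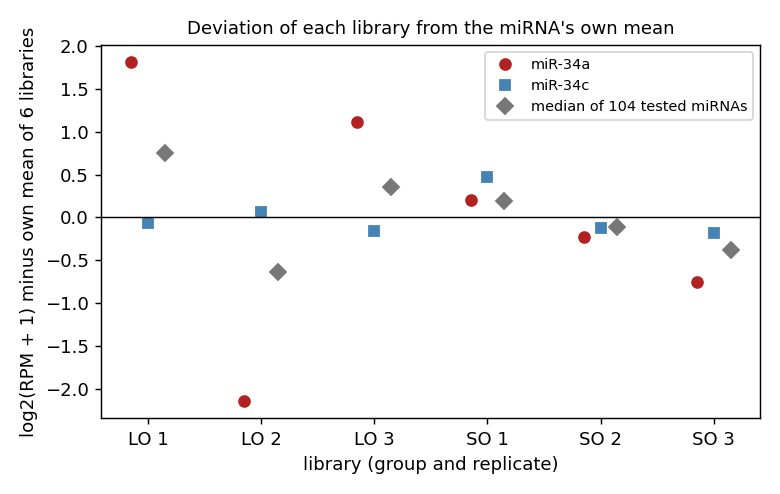
Deviation of each library from the miRNA's own mean over 6 libraries, on the log2(RPM + 1) scale, for miR-34a, miR-34c and the median of the 104 tested miRNAs. In LO 1, LO 2 and LO 3 miR-34a lies at 1.82, -2.15 and 1.12, beyond the median in the same direction each time, while miR-34c stays within 0.16 of 0.

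Other miRNAs with the pattern of each member were taken by Pearson's r of log2(RPM + 1) over the 6 libraries, as a description. For miR-34a the closest were miR-148b-3p (r = 0.998), miR-27b-3p (0.985), miR-339 (0.984), miR-103 (0.984) and miR-320 (0.981). miR-148b-3p, of the miR-148 and miR-152 seed family, lay at 41.7, 4.33 and 26.0 RPM in LO and at 16.2, 13.5 and 9.14 RPM in SO, the library order of miR-34a. Positive correlation was common on this scale, with a median r of 0.79 between miR-34a and the other 103 tested miRNAs, all of which share the 6 library totals. In CPM with TMM the median r was 0.00761. There miR-148b-3p remained at 0.996 and miR-339 at 0.939, whereas miR-320 turned to -0.896. Over the 5 libraries without LO replicate 2, miR-148b-3p was the closest on each of the 3 scales (r = 0.992 to 0.997), and the median r in RPM was 0.83.

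For miR-34c the closest were miR-340 (r = 0.816), miR-664-3p (0.746), miR-148a-3p (0.715), miR-199b-3p (0.711) and miR-199a-3p (0.710), against a median of 0.0122. SO replicate 1, the highest library of miR-34c, was the highest of each of these 5. They were picked by r with miR-34c over the same libraries, so a shared peak follows from that choice. miR-148a-3p, for example, lay at 1221, 1317 and 1772 RPM in LO and at 2264, 1416 and 1263 RPM in SO. Between the members themselves r was -0.0923 in RPM, -0.856 per 1000000 listed miRNA reads and -0.893 in CPM with TMM (n = 6 libraries). Without LO replicate 2 it was -0.00927, -0.653 and -0.841 (n = 5). With all 6 libraries, on the last 2 scales LO replicate 2 was the highest library of miR-34c and the lowest of miR-34a, and LO replicates 1 and 3 were the lowest libraries of miR-34c and the highest of miR-34a.

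In level, miR-34c stood between miR-138 (30.5 ± 9.07 RPM over 6 libraries) and miR-210 (27.9 ± 35.3 RPM), with miR-99b (31.6 ± 18.7 RPM) and miR-532-5p (25.8 ± 10.8 RPM) next. miR-210 is the miRNA induced by hypoxia. miR-34a stood between miR-7134-3p (19.1 ± 17.5 RPM) and miR-181a (18.8 ± 18.0 RPM), with miR-199a-3p (20.7 ± 7.58 RPM) and miR-148b-3p (18.5 ± 13.5 RPM) next. These neighbours were chosen by mean level, so their closeness in mean to the member beside them is no result. Of the neighbours of miR-34a, miR-7134-3p and miR-181a had CVs close to its 91.0%, at 91.8% and 95.9%, whereas miR-199a-3p had 36.6%. Of the neighbours of miR-34c, the CVs were 29.7% for miR-138, 42.0% for miR-532-5p, 59.4% for miR-99b and 127% for miR-210, all above the 19.5% of miR-34c.

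Other miRNAs reported to respond to p53 or to be processed with its help were listed beside the pair. Of 12 listed names 10 had reads and 3 were tested. All 3 had positive log2 fold changes, as did 69.2% of all tested miRNAs, with a median of 0.45 beside 0.29, and none passed FDR 0.05 by limma. Of the 7 others with reads, on 2 to 33 reads each, 3 had the higher mean in LO and 4 in SO. The 3 tested were miR-16, a repressor of cell cycle genes, miR-107 and miR-143-3p. miR-16 lay at 3306 ± 970 RPM for LO against 3066 ± 589 RPM for SO (log2 fold change 0.08). In the same order, miR-107 lay at 29.0 ± 12.1 and 20.2 ± 6.46 RPM (0.45) and miR-143-3p at 43.3 ± 22.6 and 22.5 ± 7.90 RPM (0.85). The classical p53 targets of the miR-192 and miR-194 loci were near the limit of detection, with 19 reads of miR-192 and 29 of miR-194a over all 6 libraries. miR-215 and miR-194b-3p had 0 reads in every library, which allows up to 1.37 RPM in the deepest library and 6.50 RPM in the shallowest, taking 3 reads as the limit. miR-34a was thus above these 4 in mean level.

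Markers of other follicle cells were measured in the same libraries. Granulosa and cumulus miRNAs (8 of 8 listed names with reads, led by miR-21, miR-31 and miR-202-5p, the last of which oocytes may also hold) summed to 1158, 325 and 764 RPM in LO and to 736, 515 and 392 RPM in SO. Their order over the libraries in RPM was that of miR-34a, with LO replicate 1 highest and LO replicate 2 lowest. It was also that of each library's miRNA share of the total, so it is not particular to these markers. As a share of listed reads they held 3.82%, 1.93% and 2.56% in LO and 2.55%, 2.20% and 1.68% in SO. On that scale SO replicate 3 was the lowest library of the markers, whereas LO replicate 2 remained the lowest of miR-34a. miR-132, miR-212, miR-224 and miR-383 of that list had 10, 2, 1 and 1 reads in all. The part of granulosa and cumulus RNA in the level of miR-34a was not tested. For LO against SO, the means were 267 ± 157 and 218 ± 78.8 RPM for miR-21, 310 ± 164 and 175 ± 51.2 RPM for miR-31, and 159 ± 93.4 and 146 ± 60.2 RPM for miR-202-5p.

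Theca, stroma and smooth muscle miRNAs (8 of 9 with reads, miR-214 at 0) summed to 132, 73.7 and 75.1 RPM in LO and to 101, 56.8 and 45.2 RPM in SO. The list was led by miR-143-3p, miR-199a-3p and miR-199b-3p, and in RPM LO replicate 1 was again the highest library. As a share of listed reads they held 0.435%, 0.438% and 0.252% in LO and 0.349%, 0.242% and 0.194% in SO. On that scale LO replicate 2, the lowest library of miR-34a, was the highest. The endothelial miRNAs miR-126-3p and miR-126-5p summed to 17.4, 10.8 and 9.13 RPM in LO and to 14.1, 7.30 and 3.20 RPM in SO. Their share of listed reads was also highest in LO replicate 2 (0.0645%, against 0.0573% in LO replicate 1). Blood cell miRNAs (5 of 5 with reads, led by miR-142-3p, miR-142-5p and miR-451) summed to 8.68, 10.8 and 6.32 RPM in LO and to 57.4, 2.08 and 4.57 RPM in SO. The high value was in SO replicate 1 and came mostly from miR-142-3p (41.8 RPM) and miR-142-5p (11.5 RPM). The rest of the list, on 7 to 13 reads each, peaked in LO. miR-451 was highest in LO replicate 2 (4.33 RPM, against 2.61 RPM in SO replicate 1). miR-144 was highest in LO replicate 3 (1.40 against 1.04 RPM) and miR-486 in LO replicate 1 (5.21 against 0.522 RPM). SO replicate 1 was also the highest library of miR-34c, at 40.7 RPM. The part of blood cell RNA in that value was not tested. No marker miRNA that defines the oocyte was on the lists, so the labelled cell type was not checked in that direction.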

How the data were processed

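RNA of denuded oocytes, isolated with mirVana, went into QIAseq small RNA libraries, per the labels' protocols. Of tools and builds, Bowtie2 2.2.2, cutadapt, bcl2fastq, edgeR and Sscrofa10.2 appear in the submitters' processing notes, without roles. The deposited values, headed TPM, were read as RPM, since every value above 0 (100% within 0.01 read) was a whole multiple of 1 step per library whatever the sequence length. Whole reads were recovered by that step. The makeup of the authors' total and any use of molecular identifiers are not given in the sources used here.

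limma 3.58.1 (R 4.3.3, intensity trend) was fitted on log2(RPM + 1) to the 104 miRNAs passing edgeR's filterByExpr, with a term for group alone and p-values adjusted by Benjamini and Hochberg's method. Its SE follows the abundance trend, and fold changes on that scale understate those of low miRNAs. Ratios were tested by exact two-sided permutation over libraries. Alternatives used edgeR 4.0.16 and DESeq2 1.42.0 on recovered reads (TMM or DESeq2 size factors), pseudocounts of 0.5 and 5 RPM, filters, scaling to listed miRNA reads, a replicate block and leaving out each library. The edgeR fits without a library or with the block were added after seeing the data, as were the spread on other scales and the spread and correlations without LO replicate 2. limma and edgeR were also run on simulated reads with set fold changes and a fixed dispersion, where a minimum recovery was required of edgeR only. Simulated libraries of a group had the same expected makeup, so a library that departs as LO replicate 2 did was not covered. The members and lists were chosen with earlier results of these data known. The miRNAs named were the members, any sharing their seed, the 5 closest by r and the 2 next above and below each in mean RPM, up to 3 per list by mean RPM, and the most abundant. Named outside that rule, after their values were seen, were the nearest sequences, the low members of the p53 and granulosa lists, miR-214 and miR-126-5p.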

Additional observations from a re-analysis of the deposited data

How the results depend on the processing

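Over 25 alternatives each, the log2 fold change of miR-34a ran from -0.25 to 1.73 (FDR 0.0233 to 0.992) and that of miR-34c from -0.80 to 0.10 (FDR 0.252 to 0.992). miR-34a kept its direction and its side of FDR 0.05 in 23 and miR-34c in 24. The exceptions were limma without LO replicate 1 (-0.25) and without LO replicate 2 (1.73) for miR-34a, and without SO replicate 1 (0.10) for miR-34c. The cause was not tested. The number of miRNAs called, 0 by limma with all libraries, was 2 by edgeR with TMM, by edgeR with DESeq2 size factors and by DESeq2. Leaving out libraries gave 0 to 18 by limma and 0 to 4 by edgeR with TMM, with 18 and 1 without LO replicate 2 and 4 by edgeR without SO replicate 2. Leaving out libraries moved miR-34c between -0.23 and 0.10 by limma. Between the groups, the log2 ratio differed by -0.31 when LO replicate 1 was left out and by 2.00 when LO replicate 2 was, the lowest and highest values. It was 0.71 with 0.5 read added, 0.64 with 1 RPM added and 1.57 with pooled reads. The mean log2 ratio over all libraries stayed below 0 in all 9 alternatives, from -1.63 to -0.70.

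Same-numbered libraries did not deviate together (r = -0.34, -0.22 and 0.08 for replicates 1 to 3), so the numbers were not taken as pairs. With the replicate block limma gave miR-34a 0.53 (FDR 0.853) and miR-34c -0.11 (FDR 0.961) and called 0, edgeR with TMM gave 0.74 (FDR 0.671) and -0.40 (FDR 0.779) and called 0 in place of 2, and the ratio difference was 0.57 (exact sign-flip permutation p = 1). Depth limits LO most: miR-34a rests there on 28, 1 and 42 reads.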
